A study of Mus musculus with 12 samples.

Results

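The livers compared here came from male C57/Bl6J mice kept on 1 of 3 diets, and liver RNA was measured by RNA-seq of polyadenylated transcripts. The HFD+ASBTi group ate a high-fat diet that held 0.2% cholesterol by weight and 0.006% SC-435, an inhibitor of the apical sodium-dependent bile acid transporter (ASBT, encoded by Slc10a2). The HFD group ate the high-fat diet with the same cholesterol and no inhibitor, and the chow group ate standard chow. Diets began at 4 weeks of age and ran for 16 weeks. The comparison is that of the 4 HFD+ASBTi libraries with the 4 chow libraries, chosen by their column headings from the 12 libraries of the series. HFD+ASBTi and chow differ in diet and inhibitor at once, and from this comparison alone the effects of the 2 cannot be told apart. Values of the 4 HFD libraries are given beside it for some genes and lists only. Whether each library stands for its own animal is not said in the labels, so p-values rest on the spread among these libraries, and that spread may be technical. HFD+ASBTi and HFD libraries are numbered 1 to 4, and chow libraries 1, 2, C7 and 4, where C7 is a column heading that matched the chow group but no single sample.

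Bile acids are made from cholesterol in hepatocytes, secreted into bile, and taken back up in the ileum by ASBT, from where portal blood returns them to the liver. Ileal cells that take up bile acids release FGF15, which acts on FGFR4 and its partner β-klotho in hepatocytes and lowers Cyp7a1, which catalyses the rate-limiting step from cholesterol to bile acids, while the nuclear receptor FXR senses bile acids in both organs. Blocking ASBT sends more bile acid into the faeces, and the liver replaces it from cholesterol. Hepatic cholesterol is in turn read by SREBP2, which drives cholesterol synthesis and uptake, and by LXR, which drives sterol export and Srebf1. The nuclear receptors CAR and PXR, which respond to foreign compounds and to bile acids, control the drug-metabolising cytochromes.

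The deposited table gave 23991 genes, of which 6325 passed the filter and were tested. Depth, estimated from the smallest steps of the values, was 8960000 to 11290000 reads in HFD+ASBTi, 10280000 to 13230000 in HFD and 10650000 to 11350000 in chow. Values are RPKM, reads scaled by library total and length, and the length used was close to the genomic span, so levels of different genes cannot be compared. The summed level of 8 hepatocyte markers, which include albumin and transthyretin, was 3787 to 4055 RPKM in HFD+ASBTi and 3882 to 4344 RPKM in chow. In bulk liver, fewer cells of a type and less RNA per cell cannot be told apart. Where genes are near copies of each other (Cyp3a, Cyp2c, Gstp, Mup, Tmem254, the H2 genes and the globins), the authors' counting may have split or shared reads, and stranded counting is not stated, so overlapping and antisense genes could not be separated.

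The 4 HFD+ASBTi libraries were not alike. On the second principal component of the tested genes, which held 13.8% of the variance, HFD+ASBTi 1 and 2 lay at 16.3 and 15.3, HFD+ASBTi 3 at −18.6 and HFD+ASBTi 4 at −2.85. The first component, with 26.1%, put all 4 between −6.2 and −7.9, between the HFD libraries (−8.8 to −13.8) and the chow libraries (17.4 to 20.4). Among the 492 tested members of the 26 gene lists used here, 13 were at least 3-fold apart between every one of libraries 1 and 2 and every one of libraries 3 and 4. Thrsp, a regulator of fat synthesis, was at 16, 13, 166 and 66.9 RPKM in HFD+ASBTi 1 to 4, against 31.2, 17.7, 3.85 and 25 RPKM in chow. The clock gene Per1 was at 0.59, 0.824, 4.47 and 2.94 RPKM in HFD+ASBTi, against 3.5, 3.15, 2.75 and 3.0 RPKM in chow. Usp2, a deubiquitinase, was at 0.322, 0.373, 3.03 and 2.03 RPKM in HFD+ASBTi, against 2.28, 1.97, 0.765 and 2.23 RPKM in chow. These 3 genes were low in libraries 1 and 2 and high in libraries 3 and 4, as were Acot3, Gm129, Per3 and Lpin1. Plin4, a coat protein of lipid droplets, was at 10.4, 7.83, 0.932 and 0.755 RPKM in HFD+ASBTi, against 3.92, 3.97, 5.13 and 5.72 RPKM in chow, and so ran the other way, as did Insig2, Elovl3 and Ppp1r3c. None of the 13 was called. The labels give no time of death, feeding state or batch for these libraries, so whether those differed was not tested. The numbers in the titles also set libraries 1 and 2 apart from 3 and 4, but what those numbers stand for is not said. Counts of the lists with 3 or more calls are also given without libraries 1 and 2 and without libraries 3 and 4, alternatives chosen after these values were seen.

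**Figure D1:**
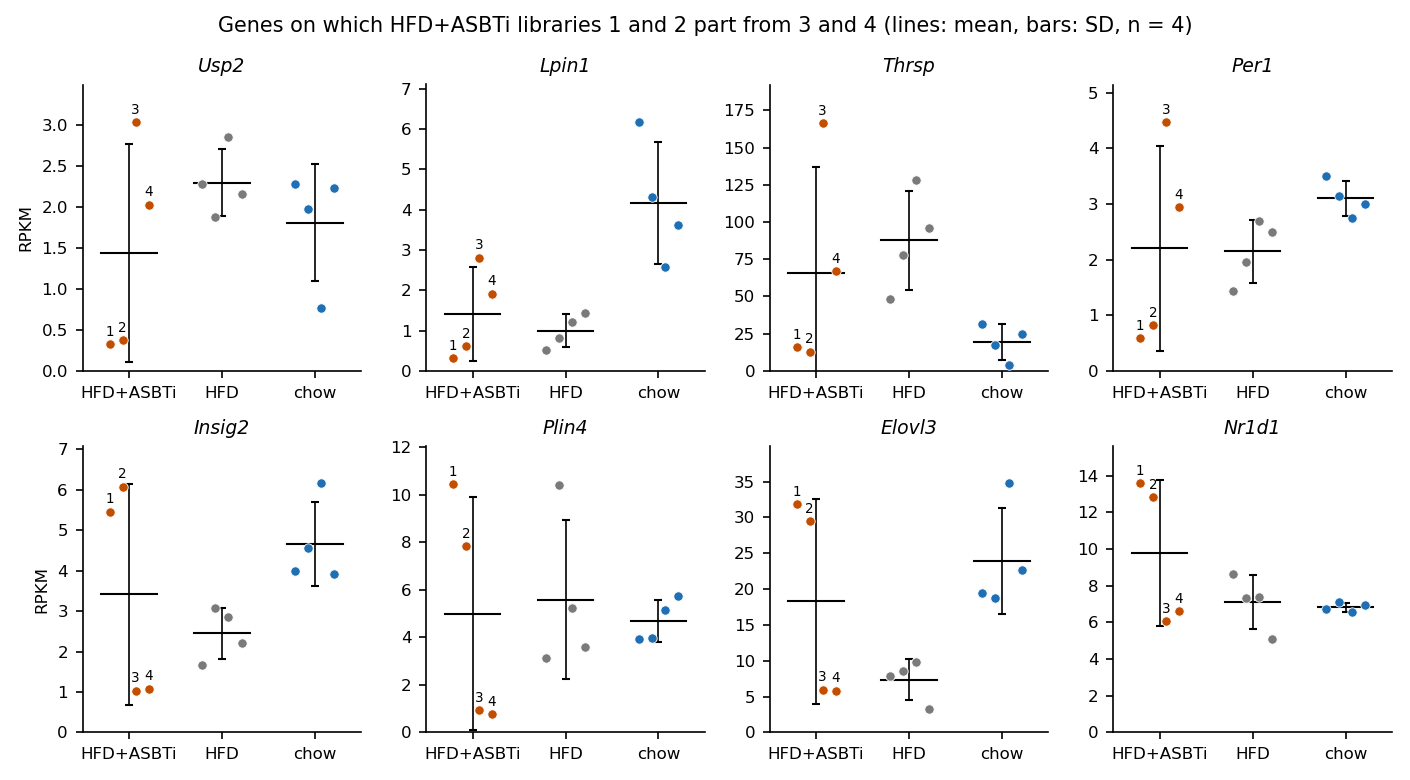
RPKM (linear axis from 0) of 8 genes in each of the 12 libraries, in the order HFD+ASBTi, HFD and chow, with a point per library, a line at the mean and bars of 1 SD, which the axis ends at 0. Within HFD+ASBTi, Usp2, Lpin1, Thrsp and Per1 were low in libraries 1 and 2 and high in libraries 3 and 4, and Insig2, Plin4, Elovl3 and Nr1d1 ran the other way.

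In HFD+ASBTi livers, genes of drug metabolism, gluconeogenesis, amino acid breakdown and the endoplasmic reticulum stress response were among those that fell. Genes of antigen presentation and lipid droplets and the apolipoprotein gene Apoa4 were among those that rose. With limma on log2(RPKM + 0.5) and adjusted p under 0.05, 300 genes were higher and 146 lower in HFD+ASBTi than in chow, which is 4.74% and 2.31% of the 6325 tested and 7.05% together. The median size of the log2 change was 0.493 among the higher and 0.569 among the lower genes, and 44 and 32 of them changed by more than 1 on the log2 scale. The 4 HFD+ASBTi and 4 chow values did not overlap in 998 genes (15.8%). Errors given with ± are the SD over the 4 libraries of a group unless SE is stated. The split between directions depended on the scaling, with 185 higher and 211 lower after centring each library on its median and 190 higher and 203 lower after quantile normalization. Leaving out 1 library gave between 90 and 350 higher and between 48 and 167 lower genes, with the fewest of both without chow 2. Without HFD+ASBTi 1 and 2 the counts were 161 higher and 93 lower, which included 97 and 53 of the genes above, and without HFD+ASBTi 3 and 4 they were 376 and 176, which included 187 and 92. In the other comparisons, HFD differed from chow by 484 higher and 282 lower genes (7.65% and 4.46%, 12.1% of those tested together), and HFD+ASBTi differed from HFD by 2 higher and 4 lower genes (0.0316% and 0.0632%, 0.0949% together). At unadjusted p under 0.05, 350 were higher and 236 lower in HFD+ASBTi than in HFD. These comparisons share libraries, so their values are given side by side. As 12.1% of all genes were called in HFD against chow and 7.05% in HFD+ASBTi against chow, list counts of the 2 are not on an equal footing.

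**Figure D2:**
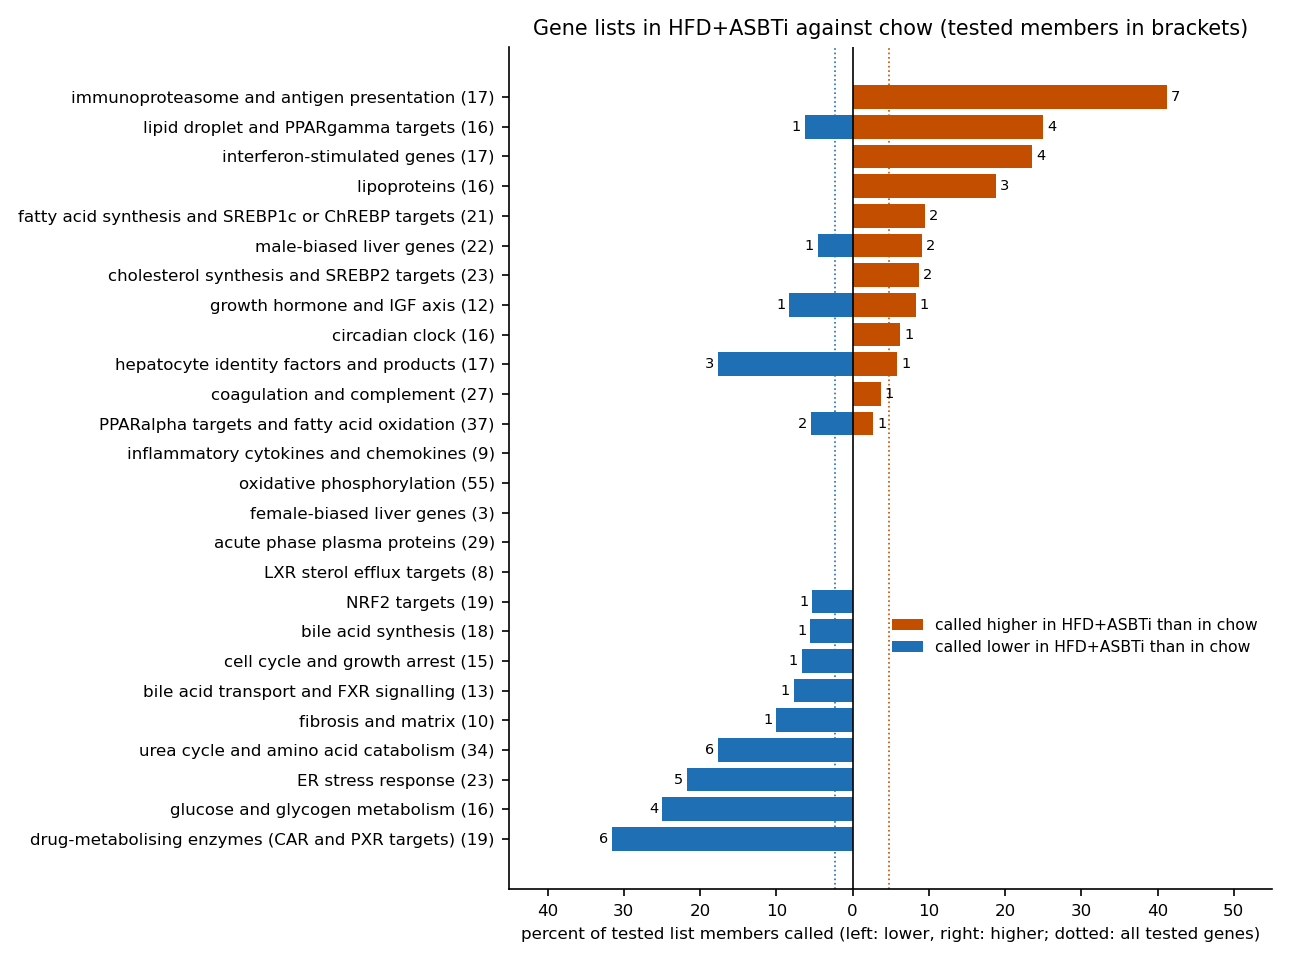
Percent of the tested members of each gene list that were called higher (to the right) or lower (to the left) in HFD+ASBTi than in chow by limma at adjusted p under 0.05, with the numbers of genes at the bars. Dotted lines mark the share of all 6325 tested genes called in each direction (4.74% higher, 2.31% lower). The immunoproteasome list reached 7 higher of 17 and the drug-metabolising list 6 lower of 19.

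The sharpest change was in the Cyp3a family, cytochromes of drug and steroid oxidation that CAR and PXR control. Cyp3a11, the main Cyp3a of mouse liver, was at 3.43, 5.42, 3.56 and 1.5 RPKM in HFD+ASBTi, 4.14, 7.41, 11.9 and 20.1 RPKM in HFD and 108, 103, 75.5 and 82.9 RPKM in chow. All 4 HFD+ASBTi libraries lay far below all 4 chow libraries, HFD 1 lay within the HFD+ASBTi range and the other HFD libraries lay between the 2 groups. The means were 3.48 ± 1.6 RPKM in HFD+ASBTi and 92.3 ± 15.5 RPKM in chow (SD, n = 4 each), 26.5-fold lower (log2 change −4.63 ± 0.43 (SE), limma adjusted p = 2.25e-04), and the difference of HFD+ASBTi from HFD was not called (limma adjusted p = 0.406). Cyp3a59 was at 0.532, 0.699, 0.292 and 0.195 RPKM in HFD+ASBTi, against 2.39, 3.01, 3.0 and 2.74 RPKM in chow, which do not overlap, and was 6.48-fold lower (limma adjusted p = 1.14e-04). Cyp3a25 averaged 12 ± 4.61 RPKM in HFD+ASBTi and 37.5 ± 4.1 RPKM in chow, 3.12-fold lower (limma adjusted p = 0.00582).

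The promoters of these 3 genes are shown because the 3 fell together. Each is 300 bases, from 250 before to 50 after the start in the RefSeq table of GRCm38.p6, 5′ to 3′ on the gene's strand. Capitals mark the nuclear receptor half-sites AGGTCA and AGTTCA on either strand and, in Cyp3a11, the HNF4 motif CAAAGTCCA. The Cyp3a11 window is chr5:145879805-145880104, minus strand, the Cyp3a25 window is chr5:146009569-146009868, minus strand, and the Cyp3a59 window is chr5:146079008-146079307, plus strand.
Cyp3a11: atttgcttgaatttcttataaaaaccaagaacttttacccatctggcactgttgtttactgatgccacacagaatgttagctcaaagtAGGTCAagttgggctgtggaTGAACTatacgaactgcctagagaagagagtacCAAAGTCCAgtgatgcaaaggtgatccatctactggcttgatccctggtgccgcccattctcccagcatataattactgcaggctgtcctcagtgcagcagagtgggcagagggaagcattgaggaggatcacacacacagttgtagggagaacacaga
Cyp3a25: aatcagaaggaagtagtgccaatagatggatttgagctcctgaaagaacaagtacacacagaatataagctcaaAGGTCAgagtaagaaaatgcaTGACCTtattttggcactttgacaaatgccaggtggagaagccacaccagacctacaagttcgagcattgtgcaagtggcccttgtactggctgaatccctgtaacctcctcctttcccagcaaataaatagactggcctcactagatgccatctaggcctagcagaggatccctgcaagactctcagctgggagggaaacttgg
Cyp3a59: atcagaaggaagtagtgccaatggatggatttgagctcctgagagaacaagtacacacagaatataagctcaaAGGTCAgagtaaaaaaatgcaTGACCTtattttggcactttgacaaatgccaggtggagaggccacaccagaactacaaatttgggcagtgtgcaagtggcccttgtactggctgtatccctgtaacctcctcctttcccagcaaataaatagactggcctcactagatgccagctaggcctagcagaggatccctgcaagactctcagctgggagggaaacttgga
The Cyp3a59 and Cyp3a25 windows were identical at 95.7% of aligned positions, and they matched Cyp3a11 at 53.9% and 52.4%. In Cyp3a11, AGGTCA lay at −162 to −157, AGTTCA on the other strand at −142 to −137 and the HNF4 motif at −109 to −101, counted from the start. In Cyp3a59 and Cyp3a25, AGGTCA occurred on both strands, at −177 to −172 and −156 to −151 in Cyp3a59. Of 32544 promoter windows in the table, 16.2% held AGGTCA, 14.0% AGTTCA and 0.479% CAAAGTCCA. A match says only that the letters are there.

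Of the 32 drug-metabolising genes listed, 19 passed the filter, and 6 were lower and 0 higher in HFD+ASBTi than in chow, with a median log2 change of −0.79 against 0.034 for all genes tested. Cyp2c29, an arachidonic acid epoxygenase, was at 2.84, 4.87, 6.31 and 5.14 RPKM in HFD+ASBTi, against 19.3, 14.3, 12.6 and 15.3 RPKM in chow, without overlap, and was 3.21-fold lower (limma adjusted p = 0.0157; 0.077 without HFD+ASBTi 1 and 2). Ces2a, a carboxylesterase, averaged 6.11 ± 1.14 RPKM in HFD+ASBTi and 17.1 ± 1.49 RPKM in chow and was 2.79-fold lower (limma adjusted p = 2.41e-04). Cyp3a13, another Cyp3a, had a log2 difference of −0.58 (limma adjusted p = 0.0449), which was lost without any 1 library other than HFD+ASBTi 4, HFD 4 and chow 4 (limma adjusted p = 0.0557 to 0.12). The receptors themselves were not called: Nr1i2 (PXR) had a log2 difference of −0.38 (limma adjusted p = 0.0855) and Nr1i3 (CAR) of 0.01 (limma adjusted p = 0.99). In HFD against chow, which shares the chow libraries, 8 were lower and 0 higher with a median of −0.59. The HFD+ASBTi count was 4 without libraries 1 and 2, 8 without libraries 3 and 4, and 5 to 9 without any 1 library.

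**Figure D3:**
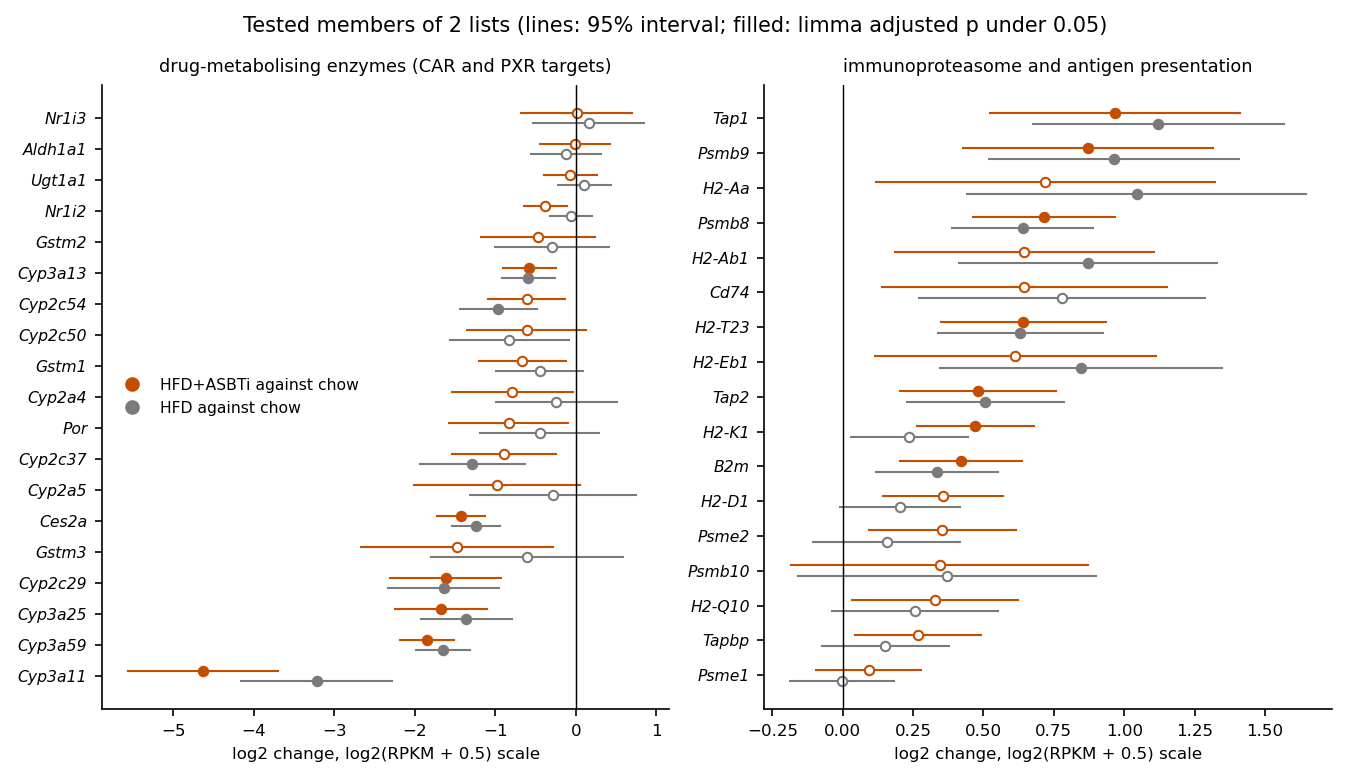
Log2 change against chow, with its 95% interval from limma, for the tested members of the drug-metabolising list (left) and of the immunoproteasome and antigen presentation list (right), in HFD+ASBTi and in HFD. Cyp3a11 is the lowest on the left, and on the right all 17 HFD+ASBTi estimates are above 0. Both comparisons use the same 4 chow libraries.

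Part of the machinery that makes glucose was lower. Of 16 tested genes of glucose and glycogen metabolism, 4 were called lower and 0 higher (median −0.13). In HFD against chow, 3 were lower and 2 higher. Pck1, the gluconeogenic phosphoenolpyruvate carboxykinase, was at 115, 98.8, 160.4 and 186 RPKM in HFD+ASBTi, 132, 162, 164 and 264 RPKM in HFD and 392, 369, 323 and 319 RPKM in chow. Every HFD+ASBTi library was below every chow library, and the fold was 2.5 (log2 change −1.36 ± 0.23 (SE), limma adjusted p = 0.00935; 0.0531 without HFD+ASBTi 1 and 2). G6pc, the catalytic subunit of glucose-6-phosphatase, averaged 14.8 ± 6.99 RPKM in HFD+ASBTi and 49.8 ± 11.3 RPKM in chow (limma adjusted p = 0.048). Slc37a4, the transporter that supplies it with glucose-6-phosphate, averaged 19.6 ± 3.77 RPKM in HFD+ASBTi and 33.7 ± 8.67 RPKM in chow (limma adjusted p = 0.0449). Igfbp1, an insulin-repressed binding protein of IGF1, was at 5.66, 2.95, 5.01 and 8.08 RPKM in HFD+ASBTi, against 26.1, 19.7, 64 and 13.2 RPKM in chow. Chow C7 was the highest of these, and the fold of 5.66 (limma adjusted p = 0.041) was 3.62 without it. G6pc lost its call without any 1 library other than HFD 1 and HFD 2 (limma adjusted p = 0.056 to 0.118). Slc37a4 lost its call without any 1 library other than HFD+ASBTi 3, HFD 4 and chow C7 (limma adjusted p = 0.0555 to 0.124). Igfbp1 lost its call without any 1 library other than HFD+ASBTi 4, HFD 1, HFD 4 and chow 4 (limma adjusted p = 0.0556 to 0.0955). The list held 0 calls without HFD+ASBTi 1 and 2, 1 without HFD+ASBTi 3 and 4, and 1 to 3 with a single library left out. It held 1 without HFD+ASBTi 1, HFD+ASBTi 2, HFD 3, chow 1 or chow 2.

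Amino acid breakdown moved the same way, with 6 of 34 tested genes of the urea cycle and amino acid catabolism lower, 0 higher and a median of −0.32. Tdo2, which opens the tryptophan ring, was at 18.6, 23.2, 18.1 and 16.6 RPKM in HFD+ASBTi, against 37, 37.2, 33.8 and 35.2 RPKM in chow. The groups did not overlap, and it was 1.87-fold lower (limma adjusted p = 0.00199), a call that no single library ended. Tat, tyrosine aminotransferase, was at 26.3, 20.4, 59.1 and 54.4 RPKM in HFD+ASBTi, against 147, 95.5, 77 and 90.3 RPKM in chow, 2.55-fold lower (limma adjusted p = 0.0456). Asl, which cleaves argininosuccinate in the urea cycle, averaged 6.34 ± 1.79 RPKM in HFD+ASBTi and 14.3 ± 4.87 RPKM in chow (limma adjusted p = 0.0294). Agxt, which detoxifies glyoxylate, averaged 5.93 ± 2.23 RPKM in HFD+ASBTi and 11.9 ± 2.29 RPKM in chow (limma adjusted p = 0.0487). Mat1a, the liver's S-adenosylmethionine synthetase, and Arg1, arginase, were also lower, with log2 differences of −0.82 and −0.80 (limma adjusted p = 0.00886 and 0.0194). Asl lost its call without HFD+ASBTi 1, HFD+ASBTi 2, chow 1 or chow 2 (limma adjusted p = 0.070 to 0.0851). Arg1 lost its call without chow 1 or chow 2 (limma adjusted p = 0.0539 to 0.0591). Tat lost its call without any 1 library other than HFD+ASBTi 3, HFD+ASBTi 4, HFD 1 and HFD 4 (limma adjusted p = 0.0615 to 0.118). Agxt lost its call without any 1 library other than HFD+ASBTi 2 and HFD 3 (limma adjusted p = 0.0512 to 0.126). Without HFD+ASBTi 1 and 2 the count was 2, and without HFD+ASBTi 3 and 4 it was 6. With a single library left out it was 2 to 7, and it was 2 without chow 1 or chow 2. In HFD against chow, 10 members of this list were lower and 1 higher.

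Among 17 tested hepatocyte identity factors and products, 1 was higher and 3 were lower, against 2 higher and 3 lower in HFD against chow. Hnf4a, the nuclear receptor that maintains hepatocyte identity, was at 13, 12.4, 14.6 and 13.4 RPKM in HFD+ASBTi, 13.7, 10.5, 10.4 and 10.7 RPKM in HFD and 18.3, 18.5, 20.6 and 19.5 RPKM in chow. All 4 HFD+ASBTi libraries were below all 4 chow libraries, a 1.44-fold difference (log2 change −0.51 ± 0.10 (SE), limma adjusted p = 0.0155; 0.0822 without HFD+ASBTi 1 and 2). Cebpa, a bZIP factor of the same network, was higher, at 97.3 ± 13.6 RPKM in HFD+ASBTi and 65.1 ± 4.65 RPKM in chow (limma adjusted p = 0.0158). The other 2 lower members were Tat and Tdo2. The list held 1 lower gene without HFD+ASBTi 1 and 2 and 5 without HFD+ASBTi 3 and 4. Albumin had a log2 difference of −0.42 (limma adjusted p = 0.212).

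Of 23 tested genes of the endoplasmic reticulum (ER) stress response, 5 were lower and 0 higher, while the list's median was −0.056. HFD against chow gave 6 lower and 0 higher. Creld2, a secreted chaperone-like protein, was at 0.809, 0.808, 0.729 and 1.19 RPKM in HFD+ASBTi, against 1.58, 1.93, 1.89 and 1.52 RPKM in chow, without overlap, and was 1.96-fold lower (limma adjusted p = 0.00747). Herpud1, a part of the ER degradation machinery, averaged 19 ± 6.25 RPKM in HFD+ASBTi and 35.6 ± 3.24 RPKM in chow (limma adjusted p = 0.0167). Dnajb9, a luminal co-chaperone, averaged 5.55 ± 1.03 RPKM in HFD+ASBTi and 9.52 ± 1.83 RPKM in chow (limma adjusted p = 0.0251). Hyou1, another chaperone, averaged 2.78 ± 0.734 RPKM in HFD+ASBTi and 4.77 ± 0.822 RPKM in chow (limma adjusted p = 0.0449). Ppp1r15a, a phosphatase subunit, had a log2 difference of −0.53 (limma adjusted p = 0.041). Hspa5, the main luminal chaperone, was not called, with a log2 difference of −0.46 (limma adjusted p = 0.123). Herpud1 lost its call without chow 2 (limma adjusted p = 0.0513). Dnajb9 lost its call without HFD+ASBTi 1, HFD+ASBTi 2, chow 1, chow 2 or chow C7 (limma adjusted p = 0.055 to 0.0765). Ppp1r15a lost its call without any 1 library other than HFD+ASBTi 1, HFD 1, HFD 3, HFD 4 and chow 4 (limma adjusted p = 0.0546 to 0.105). Hyou1 lost its call without any 1 library other than HFD+ASBTi 4, HFD 1, HFD 4 and chow 4 (limma adjusted p = 0.0617 to 0.111). The list's count was 3 without HFD+ASBTi 1 and 2, 4 without HFD+ASBTi 3 and 4, and 1 to 6 with a single library left out, with 1 only without chow 2.

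On the lipid side, the apolipoprotein Apoa4, carried on chylomicrons and high-density lipoprotein, had the largest rise. It was at 798, 616, 252 and 249 RPKM in HFD+ASBTi, 438, 884, 1061 and 1309 RPKM in HFD and 74.4, 47.2, 49.2 and 33.1 RPKM in chow. Every HFD+ASBTi library was above every chow library, and libraries 1 and 2 were above 3 and 4. The means were 479 ± 274 RPKM in HFD+ASBTi and 51 ± 17.2 RPKM in chow (SD, n = 4 each), 9.39-fold higher (log2 change 3.09 ± 0.45 (SE), limma adjusted p = 0.00431). Apoc2, the activator of lipoprotein lipase, and Lrp1, a remnant receptor, were the other 2 of 16 tested lipoprotein genes that were higher, with log2 differences of 0.75 and 0.37 (limma adjusted p = 0.0488 and 0.0494), and 0 were lower. Apoc2 lost its call without any 1 library other than HFD+ASBTi 3, HFD 1 and HFD 4 (limma adjusted p = 0.0615 to 0.121). Lrp1 lost its call without any 1 library other than HFD 1 and HFD 4 (limma adjusted p = 0.0637 to 0.132). The list held 1 call without HFD+ASBTi 1 and 2, 2 without HFD+ASBTi 3 and 4, and 1 without HFD+ASBTi 1, HFD+ASBTi 2, HFD 2, HFD 3 or any single chow library. After median centring or quantile normalization 1 lipoprotein gene was called higher than in chow, and on the RPM scale 2 were. Between HFD and chow, 2 members were higher and 1 lower.

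Lipid droplet genes were mostly higher where they changed, with 4 of 16 higher and 1 lower (median 0.25). HFD against chow gave 7 higher and 1 lower. G0s2, an inhibitor of the triglyceride lipase ATGL, was at 112, 81, 76.2 and 64.6 RPKM in HFD+ASBTi, against 28.6, 32.3, 37.1 and 22.3 RPKM in chow. The groups did not overlap, and it was 2.77-fold higher (limma adjusted p = 0.0145). Fitm1, which partitions fat into droplets, averaged 25.7 ± 5.08 RPKM in HFD+ASBTi and 11.2 ± 1.54 RPKM in chow (limma adjusted p = 0.0125). Cd36, a fatty acid translocase, averaged 0.873 ± 0.307 RPKM in HFD+ASBTi and 0.275 ± 0.101 RPKM in chow (limma adjusted p = 0.0202), and its chow mean was under the 0.5 RPKM of the filter. Lipe, hormone-sensitive lipase, had a log2 difference of 0.46 (limma adjusted p = 0.0449). Plin5, a droplet protein that tethers mitochondria, was lower, at 4.29 ± 1.76 RPKM in HFD+ASBTi and 7.93 ± 0.475 RPKM in chow (limma adjusted p = 0.0417). Cd36 lost its call without HFD+ASBTi 1, HFD+ASBTi 2, chow 1 or chow 2 (limma adjusted p = 0.052 to 0.0625). Lipe lost its call without any 1 library other than HFD+ASBTi 4, HFD 2 and HFD 4 (limma adjusted p = 0.0521 to 0.114). Plin5 lost its call without any 1 library other than HFD+ASBTi 1, HFD+ASBTi 2, HFD 1 and HFD 4 (limma adjusted p = 0.0573 to 0.0994). Without HFD+ASBTi 1 and 2 the list held 0 higher and 2 lower genes, and without HFD+ASBTi 3 and 4 it held 6 higher and 0 lower. With a single library left out it held 2 to 4 higher genes, and 2 without HFD+ASBTi 1, HFD+ASBTi 2, chow 1 or chow 2.

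Srebf1, which encodes the activator of fat synthesis SREBP1c and is itself an LXR target, was at 3.66, 3.04, 8.14 and 4.93 RPKM in HFD+ASBTi, 10.3, 9.75, 9.73 and 9.79 RPKM in HFD and 1.59, 1.89, 1.56 and 1.46 RPKM in chow. All HFD+ASBTi values were above all chow values and below all HFD values. It was 3.05-fold higher than in chow (limma adjusted p = 0.00886), and its difference from HFD was a log2 difference of −1.02 (limma adjusted p = 0.232; 0.00962 without HFD+ASBTi 3). Fads2, a fatty acid desaturase, was also higher, at 3.72 ± 1.54 RPKM in HFD+ASBTi and 1.27 ± 0.147 RPKM in chow (limma adjusted p = 0.023), which was lost without chow 1, chow 2 or chow C7 (limma adjusted p = 0.0506 to 0.0671). The other 19 of 21 tested genes of fatty acid synthesis were not called. Fasn, fatty acid synthase, was at 5.13, 4.84, 25 and 11.7 RPKM in HFD+ASBTi, against 7.61, 4.98, 2.53 and 5.75 RPKM in chow (limma adjusted p = 0.301). Scd1, stearoyl-CoA desaturase, was at 90.1, 135, 390.0 and 234 RPKM in HFD+ASBTi, against 193, 193, 93.6 and 208 RPKM in chow (limma adjusted p = 0.892). The groups overlapped for both. The PPARα list, 37 genes of fatty acid oxidation, had 1 higher and 2 lower, close to the share of all genes tested (7.05% in either direction). HFD against chow gave 9 higher and 2 lower, where 12.1% of all genes tested were called. Fabp1, the liver's fatty acid-binding protein, averaged 238 ± 48.7 RPKM in HFD+ASBTi and 104 ± 19.6 RPKM in chow and was 2.28-fold higher (limma adjusted p = 0.00431). Cyp4a14, a fatty acid hydroxylase, was at 35.7, 46.5, 22 and 7.78 RPKM in HFD+ASBTi, against 64.6, 67.8, 208 and 149.8 RPKM in chow (limma adjusted p = 0.0356), without overlap. Angptl4, an inhibitor of lipoprotein lipase, averaged 11.8 ± 1.88 RPKM in HFD+ASBTi and 18.7 ± 2.37 RPKM in chow (limma adjusted p = 0.0297). Cyp4a14 lost its call without HFD+ASBTi 3, chow 2, chow C7 or chow 4 (limma adjusted p = 0.0564 to 0.0854). Angptl4 lost its call without HFD+ASBTi 1, HFD+ASBTi 2, chow 1, chow 2 or chow 4 (limma adjusted p = 0.0719 to 0.0816). Without HFD+ASBTi 1 and 2 the list held 1 higher and 1 lower, with Angptl4 lost (limma adjusted p = 0.166), and without HFD+ASBTi 3 and 4 it held 2 higher and 1 lower, with Cyp4a14 lost (limma adjusted p = 0.102).

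Several genes of the immunoproteasome, which cuts peptides for display, and of antigen presentation were higher. Of 17 tested members of this list, 7 were called higher and 0 lower, all 17 had estimates above 0 (as had 3666 of all 6325 genes tested), and the median log2 change was 0.48. Psmb8, a catalytic subunit that replaces its constitutive counterpart in the immunoproteasome, was at 4.32, 5.17, 4.93 and 4.43 RPKM in HFD+ASBTi, 5.81, 3.72, 4.02 and 4.42 RPKM in HFD and 2.48, 2.67, 2.89 and 2.64 RPKM in chow. The HFD+ASBTi and chow libraries did not overlap, and it was 1.76-fold higher (log2 change 0.72 ± 0.11 (SE), limma adjusted p = 0.00691), a call that no single library ended. Psmb9, its partner subunit, was at 1.64, 2.83, 0.938 and 1.64 RPKM in HFD+ASBTi, against 0.791, 0.52, 0.774 and 0.672 RPKM in chow (limma adjusted p = 0.0294). Tap1, a subunit of the transporter that feeds peptides to class I molecules, was at 2.34, 3.12, 1.61 and 1.47 RPKM in HFD+ASBTi, against 0.98, 0.882, 0.893 and 0.535 RPKM in chow and was 2.6-fold higher (limma adjusted p = 0.0197). H2-T23, a non-classical class I molecule, averaged 32 ± 4.21 RPKM in HFD+ASBTi and 20.3 ± 2.1 RPKM in chow (limma adjusted p = 0.0195). Tap2, H2-K1 and B2m were higher too, by 0.48, 0.47 and 0.42 on the log2 scale (limma adjusted p = 0.0452, 0.0176 and 0.030). Psmb9 lost its call without HFD+ASBTi 1, HFD+ASBTi 4, chow 1, chow 2, chow C7 or chow 4 (limma adjusted p = 0.0501 to 0.0862). Tap1 lost its call without HFD+ASBTi 1 or chow 2 (limma adjusted p = 0.0525 to 0.0528). H2-T23 lost its call without HFD+ASBTi 2, chow 2 or chow C7 (limma adjusted p = 0.0512 to 0.0618). H2-K1 lost its call without HFD+ASBTi 2 or chow 2 (limma adjusted p = 0.0507 to 0.0525). B2m lost its call without HFD+ASBTi 1, HFD+ASBTi 2, chow 1, chow 2, chow C7 or chow 4 (limma adjusted p = 0.0623 to 0.0774). Tap2 lost its call without any 1 library other than HFD+ASBTi 2, HFD+ASBTi 3 and HFD+ASBTi 4 (limma adjusted p = 0.0531 to 0.11). The list's count was 2 without HFD+ASBTi 1 and 2, and 7 without HFD+ASBTi 3 and 4. With a single library left out it was 1 without chow 2, 3 without HFD+ASBTi 1 or chow C7, 4 without HFD+ASBTi 2 or chow 4, and 5 to 8 otherwise. In HFD against chow, 9 were higher and 0 lower.

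Of 17 tested interferon-stimulated genes, 4 were higher and 0 lower (median 0.66). Between HFD and chow, 5 were higher and 0 lower. Stat2, a transducer of type I interferon signals, was at 2.18, 2.2, 2.47 and 2.77 RPKM in HFD+ASBTi, 1.91, 1.6, 1.81 and 2.05 RPKM in HFD and 1.46, 1.43, 1.53 and 1.59 RPKM in chow. The HFD+ASBTi and chow libraries did not overlap, and it was 1.6-fold higher (limma adjusted p = 0.00467), a call that no single library ended. Ifit3, an antiviral effector, was at 3.23, 3.96, 1.1 and 1.33 RPKM in HFD+ASBTi, against 0.54, 0.516, 0.937 and 0.831 RPKM in chow (limma adjusted p = 0.0445). HFD+ASBTi 1 and 2 were well above 3 and 4, and none overlapped chow. Irf9, the DNA-binding partner of STAT2, averaged 3.73 ± 0.778 RPKM in HFD+ASBTi and 2.43 ± 0.155 RPKM in chow (limma adjusted p = 0.0433). Ifi27 averaged 6.83 ± 0.656 RPKM in HFD+ASBTi and 4.37 ± 0.642 RPKM in chow (limma adjusted p = 0.0433). Ifit3 lost its call without any 1 library other than HFD+ASBTi 3 and HFD+ASBTi 4 (limma adjusted p = 0.0501 to 0.116). Irf9 lost its call without any 1 library other than HFD+ASBTi 3, HFD 1, HFD 3 and HFD 4 (limma adjusted p = 0.0602 to 0.101). Ifi27 lost its call without any 1 library other than HFD 3 and HFD 4 (limma adjusted p = 0.050 to 0.112). The count was 1 without HFD+ASBTi 1 and 2, 11 without HFD+ASBTi 3 and 4, 1 without HFD+ASBTi 1, HFD+ASBTi 2, HFD 2 or any single chow library, 12 on the RPM scale, and 1 after median centring or quantile normalization.

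Promoters of 3 of these genes are shown because they hold motifs tied to interferon. Capitals mark the GAS motif TTCNNNGAA in Psmb8 and the core of the interferon-stimulated response element (GAAA, any 2 bases, GAAA) in Stat2 and B2m, on either strand. The windows, from RefSeq and GRCm38.p6 as above, are chr17:34197945-34198244, plus strand for Psmb8, chr10:128270248-128270547, plus strand for Stat2 and chr2:122147437-122147736, plus strand for B2m.
Psmb8: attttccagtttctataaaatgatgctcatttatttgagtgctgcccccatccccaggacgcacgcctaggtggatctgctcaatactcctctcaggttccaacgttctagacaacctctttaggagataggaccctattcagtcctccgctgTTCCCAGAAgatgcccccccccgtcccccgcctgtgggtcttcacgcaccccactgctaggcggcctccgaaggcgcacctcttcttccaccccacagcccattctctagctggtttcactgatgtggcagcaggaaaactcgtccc
Stat2: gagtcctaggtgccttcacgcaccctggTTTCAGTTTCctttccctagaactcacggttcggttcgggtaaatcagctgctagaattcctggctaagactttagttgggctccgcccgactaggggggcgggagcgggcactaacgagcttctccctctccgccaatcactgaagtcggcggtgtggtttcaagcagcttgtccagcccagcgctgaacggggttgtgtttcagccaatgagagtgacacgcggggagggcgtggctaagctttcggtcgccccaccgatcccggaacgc
B2m: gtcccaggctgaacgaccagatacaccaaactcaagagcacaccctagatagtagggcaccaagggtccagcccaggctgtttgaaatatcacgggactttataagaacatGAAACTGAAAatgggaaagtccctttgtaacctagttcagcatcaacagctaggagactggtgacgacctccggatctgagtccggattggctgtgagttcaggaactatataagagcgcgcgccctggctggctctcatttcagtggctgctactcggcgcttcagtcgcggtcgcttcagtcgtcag
Of the 11 called members of both lists, 9 had an entry in the table. The core response element was found in 4 of the 9, namely B2m, H2-T23, Ifit3 and Stat2, and in 3.45% of all 32544 windows. The GAS motif was found in 1, Psmb8, at −97 to −89, and in 8.33% of all windows. Psmb9 and Tap1 are read in opposite directions from starts 226 bases apart, their windows share 275 bases, and neither motif was found in them.

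Markers of other cells moved with the immune genes in part. Of 9 tested markers of macrophages, Cd68 and Mpeg1 were higher (log2 differences of 0.77 and 1.21, limma adjusted p = 0.0251 and 0.0174) and 0 lower. Cd68 lost its call without HFD+ASBTi 2, chow 1, chow 2 or chow 4 (limma adjusted p = 0.0613 to 0.0752). Mpeg1 lost its call without chow 2 (limma adjusted p = 0.0554). The summed level of 17 macrophage markers was 42.2 to 71.0 RPKM in HFD+ASBTi, 44 to 58.8 RPKM in HFD and 26.5 to 59.3 RPKM in chow, so the groups overlapped. The overlap came from chow C7 (59.3 RPKM), as the other chow libraries, at 26.5, 31.1 and 38.6 RPKM, lay below all 4 HFD+ASBTi libraries. All 9 tested macrophage markers had estimates above 0, with a median log2 change of 0.38. No marker of T, B and NK cells or of neutrophils passed the filter, and their sums were 0.310 to 0.631 RPKM and 0.142 to 0.780 RPKM in HFD+ASBTi, against 0.30 to 0.994 RPKM and 0.150 to 0.448 RPKM in chow. The part of macrophages in the rise of antigen presentation genes was not tested. Of 24 listed cytokine and chemokine genes 9 were tested and none was called. Nor was any of 29 acute phase genes (median −0.20), of which 8 were lower in HFD against chow. Of 38 listed fibrosis genes only 10 passed the filter, so most of the list was not tested. Among these 10 only Ctgf, a matricellular protein, was called, lower at 0.612 ± 0.171 RPKM in HFD+ASBTi and 2.52 ± 0.912 RPKM in chow (limma adjusted p = 0.037). On the RPM scale the list held 1 higher and 1 lower gene. Ctgf lost its call without any 1 library other than HFD 1, HFD 3 and HFD 4 (limma adjusted p = 0.0508 to 0.0948).

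Red cell markers and single markers of adipose tissue, intestine and pancreas also differed. Globin and other red cell markers summed to 147 to 287 RPKM in HFD+ASBTi, 168 to 301 RPKM in HFD and 28.8 to 139 RPKM in chow, without overlap between HFD+ASBTi and chow, and 4 of 5 tested were called higher. Hbb-b1, a β-globin, was at 58.9, 84.7, 74.9 and 41.2 RPKM in HFD+ASBTi, against 8.03, 15.5, 7.43 and 35.4 RPKM in chow, 3.91-fold higher (limma adjusted p = 0.0194) and 6.29-fold without chow 4, whose value was the highest of the chow libraries. This call ended without HFD+ASBTi 2, chow 1 or chow 2 (limma adjusted p = 0.0513 to 0.0539), and without HFD+ASBTi 1 and 2 none of the 4 held. Adipose markers summed to 85.2 to 183 RPKM in HFD+ASBTi and 49.3 to 62.1 RPKM in chow. Most of that sum was Car3, a carbonic anhydrase that liver also expresses, and without it the other 10 markers summed to 5.63 to 11.2 RPKM in HFD+ASBTi and 4.83 to 7.04 RPKM in chow, which overlap. Car3 was the 1 called of 4 tested (limma adjusted p = 0.0271), a call lost without HFD+ASBTi 1, HFD+ASBTi 2, chow 1, chow 2, chow C7 or chow 4 (limma adjusted p = 0.0525 to 0.0736). Fabp2 and Cela2a, named for intestine and pancreas, were called higher (limma adjusted p = 0.0044 and 0.00799), while 8 of the 15 markers of those organs were at 0 in all 12 libraries.

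Other genes with large changes had varied functions. The largest changes were named only among genes whose HFD+ASBTi and chow values did not overlap, so that trait is not a result for them. Camk2b, a calcium-dependent kinase subunit, was at 0.258, 1.31, 3.46 and 1.09 RPKM in HFD+ASBTi, 2.03, 2.14, 2.64 and 2.34 RPKM in HFD and 13.9, 12.1, 10.9 and 11.4 RPKM in chow. The HFD+ASBTi and chow libraries did not overlap, and the 7.91-fold lower level (log2 change −2.87 ± 0.37 (SE), limma adjusted p = 0.00206) was 13.6-fold lower without HFD+ASBTi 3. Serpina7, thyroxine-binding globulin, was at 10.8, 4.76, 4.25 and 9.6 RPKM in HFD+ASBTi, against 1.01, 1.0, 2.1 and 0.602 RPKM in chow. It was 6.22-fold higher without overlap (limma adjusted p = 0.00814). Aqp8, an aquaporin of hepatocytes, was at 11.8, 14.3, 11.8 and 4.53 RPKM in HFD+ASBTi, against 3.24, 2.46, 1.11 and 1.99 RPKM in chow, 4.82-fold higher (limma adjusted p = 0.0171; 0.0992 without HFD+ASBTi 1 and 2). Tmem254b, a membrane protein with near copies Tmem254a and Tmem254c, was at 9.41, 8.39, 6.49 and 9.02 RPKM in HFD+ASBTi, against 2.06, 1.97, 2.58 and 2.17 RPKM in chow, 2 tight groups 3.79-fold apart (limma adjusted p = 2.11e-05). Rnf186, an E3 ubiquitin ligase, averaged 6.48 ± 1.39 RPKM in HFD+ASBTi and 2.09 ± 0.925 RPKM in chow (3.1-fold, limma adjusted p = 0.00836). Nudt7, a peroxisomal coenzyme A hydrolase, averaged 18.2 ± 6.06 RPKM in HFD+ASBTi and 6.0 ± 1.09 RPKM in chow (3.04-fold, limma adjusted p = 0.00651). Cyp26a1, which degrades retinoic acid, was at 0.125, 0.0714, 1.32 and 0.204 RPKM in HFD+ASBTi, against 2.22, 2.29, 1.65 and 2.08 RPKM in chow. Only HFD+ASBTi 3 came near chow, and the 4.8-fold lower level (limma adjusted p = 0.0138) was 15.4-fold lower without it. HFD+ASBTi 1, 2 and 4 were under the 0.5 RPKM of the filter. Gadd45b, a growth arrest and stress gene, averaged 0.321 ± 0.134 RPKM in HFD+ASBTi, a mean under the filter, and 1.87 ± 0.288 RPKM in chow, 5.81-fold lower (limma adjusted p = 3.88e-04). Camk2b, Serpina7, Aqp8, Rnf186, Nudt7, Cyp26a1 and Gadd45b were called the same way in HFD against chow (limma adjusted p = 2.65e-04 to 0.0128). Both comparisons use the same chow libraries, and such agreement was 1 of the rules for naming genes, so it is not a separate result. None of them was called between HFD+ASBTi and HFD (limma adjusted p = 0.455 to 0.995), where 0.0949% of all genes tested were called.

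**Figure D4:**
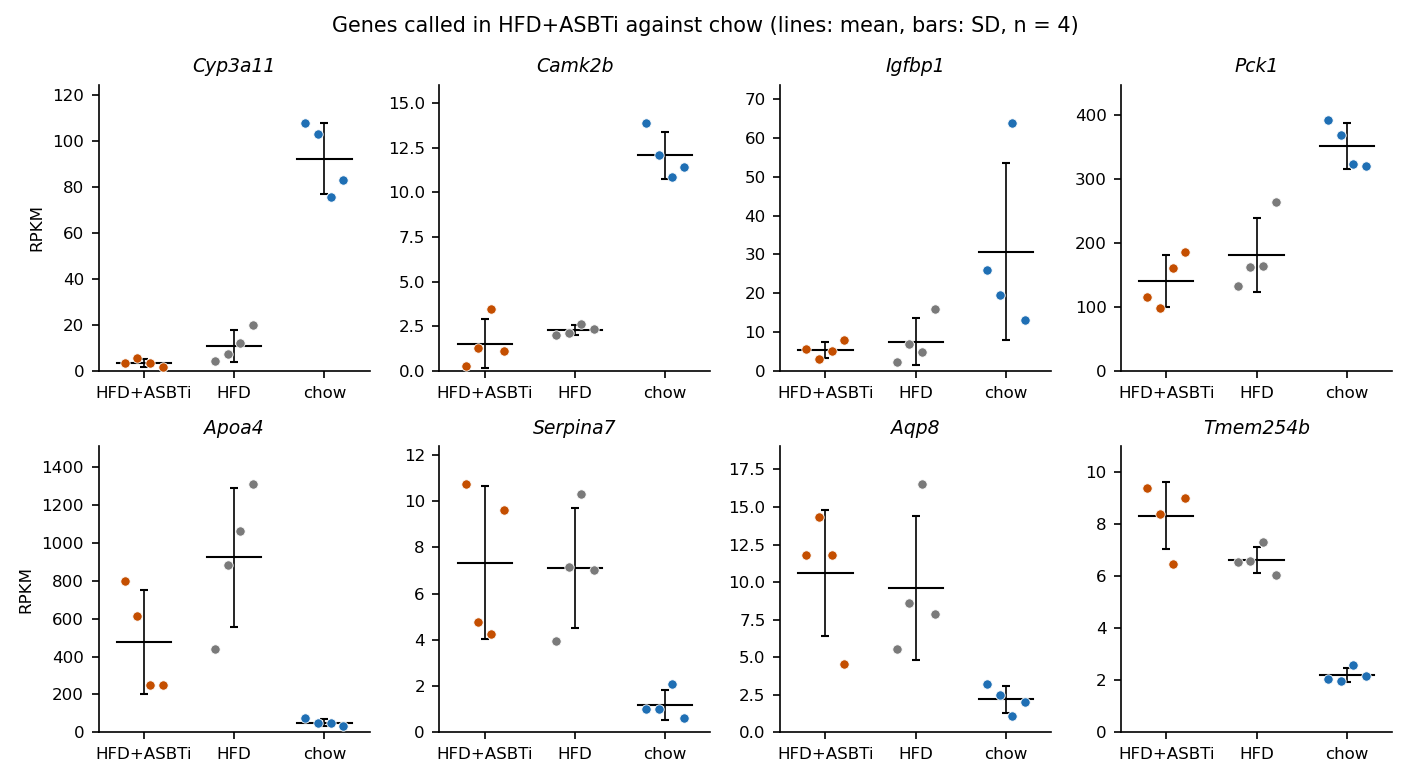
RPKM (linear axis from 0) of 8 genes in each library, in the order HFD+ASBTi, HFD and chow, with a point per library, a line at the mean and bars of 1 SD. Cyp3a11, Camk2b, Igfbp1 and Pck1 were lower and Apoa4, Serpina7, Aqp8 and Tmem254b higher in HFD+ASBTi than in chow, and for each of the 8 the HFD+ASBTi and chow points do not overlap. The largest changes were named among genes without overlap, which 15.8% of all genes tested were.

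A microRNA row stood among the lower genes. Mir1906 was at 1.17, 2.22, 0 and 0 RPKM in HFD+ASBTi, 1.19, 7.27, 1.04 and 0 RPKM in HFD and 11.5, 10.5, 11 and 11.6 RPKM in chow, with identical values for its 2 loci. HFD+ASBTi 3 and 4 held no read, and libraries 1 and 2 about 1 and 2 reads by the depth estimate. The call (limma adjusted p = 0.0215) ended without chow 1, chow 2 or chow C7 (limma adjusted p = 0.0519 to 0.0583) and with HFD+ASBTi 3 and 4 left out (limma adjusted p = 0.0992). Libraries of polyadenylated RNA do not measure mature microRNAs. The mature sequence from RefSeq, with the seed at bases 2 to 8 in capitals, is the same at chr12:109544588-109544609 (plus strand) and chrX:88759485-88759506 (minus strand) of GRCm38.p6.
miR-1906: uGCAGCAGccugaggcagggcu

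Genes of bile acid and sterol handling, the pathways closest to the inhibitor's target, were called at about the share of all genes tested (7.05% in either direction). Of 18 tested genes of bile acid synthesis, 1 was lower and 0 higher (median 0.058), of 13 genes of bile acid transport and FXR signalling 1 was lower and 0 higher (median 0.048), and of 8 LXR efflux genes none was called (median 0.14). Cyp7a1 was at 11.3, 14.7, 12.9 and 26.2 RPKM in HFD+ASBTi, 5.6, 4.84, 7.25 and 6.71 RPKM in HFD and 10.4, 10.7, 4.97 and 6.2 RPKM in chow. The HFD+ASBTi values were all above the chow values and well above those of HFD, but neither the difference from HFD (limma adjusted p = 0.241) nor the 2.02-fold difference from chow was called (log2 change 0.96, 95% interval 0.33 to 1.59, limma adjusted p = 0.0717). Cyp8b1, which sets the share of cholic acid, was at 236, 366, 178 and 142 RPKM in HFD+ASBTi, 123, 114, 171 and 126 RPKM in HFD and 346, 245, 239 and 197 RPKM in chow. HFD+ASBTi overlapped chow (log2 change −0.22, 95% interval −0.82 to 0.38, limma adjusted p = 0.687), while HFD was lower than chow (log2 change −0.93, limma adjusted p = 0.0494). That call of HFD against chow was lost without any 1 library other than HFD+ASBTi 2 and HFD+ASBTi 4 (limma adjusted p = 0.0515 to 0.12). Cyp27a1, the first enzyme of the alternative pathway, averaged 11.2 ± 1.55 RPKM in HFD+ASBTi, 8.76 ± 1.07 RPKM in HFD and 12.3 ± 1.86 RPKM in chow (limma adjusted p = 0.602 against chow). The called member was Acnat2, which resembles the enzyme that conjugates bile acids to amino acids, at 0.33, 0.496, 0.331 and 0.518 RPKM in HFD+ASBTi, against 1.63, 1.63, 1.49 and 1.21 RPKM in chow, 3.56-fold lower (limma adjusted p = 2.41e-04).

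Fgfr4, the receptor of FGF15, was at 1.19, 1.12, 1.31 and 1.23 RPKM in HFD+ASBTi, 0.812, 0.657, 0.656 and 0.805 RPKM in HFD and 1.25, 1.08, 1.0 and 1.18 RPKM in chow. Its HFD+ASBTi level overlapped chow (log2 change 0.075, 95% interval −0.074 to 0.22, limma adjusted p = 0.553) and was above HFD by 0.48 (limma adjusted p = 0.0452). The call against HFD was lost without any 1 library other than chow 1 and chow C7 (limma adjusted p = 0.0526 to 0.161), and also with median centring and with quantile normalization. The main bile acid importer Slc10a1 (NTCP) averaged 24.4 ± 4.4 RPKM in HFD+ASBTi and 24.2 ± 5.04 RPKM in chow. The canalicular exporter Abcb11 (BSEP) averaged 1.74 ± 0.326 RPKM in HFD+ASBTi and 1.75 ± 0.0993 RPKM in chow. Nr0b2 (SHP), an FXR target, averaged 10.7 ± 3.95 RPKM in HFD+ASBTi and 10.2 ± 1.1 RPKM in chow. None of these 3 was called, with limma adjusted p = 0.977, 0.93 and 0.98 and 95% intervals of the log2 difference of −0.42 to 0.45, −0.27 to 0.22 and −0.60 to 0.57. Slco1a4, an organic anion transporter under PXR, was the called one, at 0.217, 0.418, 0.376 and 0.0942 RPKM in HFD+ASBTi, against 1.08, 1.04, 1.17 and 1.59 RPKM in chow, 4.42-fold lower (limma adjusted p = 0.00679), a call that no single library ended. All 4 HFD+ASBTi values were under the 0.5 RPKM of the filter, which the gene passed through other libraries.

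Abcg5 and Abcg8, the 2 subunits of the canalicular sterol exporter, are LXR targets. Abcg5 was at 2.1, 2.14, 3.26 and 1.83 RPKM in HFD+ASBTi, 4.37, 5.05, 3.87 and 4.77 RPKM in HFD and 2.11, 2.0, 2.19 and 3.09 RPKM in chow. Abcg8 was at 3.3, 3.26, 3.94 and 2.54 RPKM in HFD+ASBTi, 6.6, 6.42, 4.59 and 6.58 RPKM in HFD and 3.14, 2.98, 2.92 and 4.33 RPKM in chow. For both, the HFD+ASBTi values overlapped chow, and the HFD values were higher than chow by 0.83 and 0.77 on the log2 scale (limma adjusted p = 0.00806 and 0.0101). Between HFD+ASBTi and chow the log2 changes were −0.015 and −0.029, with 95% intervals of −0.36 to 0.33 and −0.36 to 0.31. Between HFD+ASBTi and HFD they were −0.84 and −0.80, which did not pass (limma adjusted p = 0.132 and 0.156), though Abcg5 did without HFD+ASBTi 3 (limma adjusted p = 0.026). The 2 genes start 110 bases apart and are read in opposite directions, and their windows share 209 bases. The Abcg8 window (chr17:84682871-84683170, plus strand, GRCm38.p6, RefSeq) is shown because its last 209 bases are that shared stretch, with CCAAT in capitals, letters that 37.4% of all windows hold. The CCAAT at −175 to −171 from the Abcg8 start lies outside the shared stretch and that at −114 to −110 within it.
Abcg8: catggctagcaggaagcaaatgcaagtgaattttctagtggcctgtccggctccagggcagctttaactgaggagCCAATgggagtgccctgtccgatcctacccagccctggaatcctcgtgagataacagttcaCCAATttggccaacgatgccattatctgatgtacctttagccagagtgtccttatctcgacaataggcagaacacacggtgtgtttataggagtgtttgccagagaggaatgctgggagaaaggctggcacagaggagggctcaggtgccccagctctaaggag

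Of 23 tested genes of cholesterol synthesis and SREBP2 targets, 2 were higher and 0 lower in HFD+ASBTi than in chow (median 0.23), against 2 higher and 2 lower in HFD (median −0.23), and none was called between HFD+ASBTi and HFD (median 0.32). Acat2, which makes acetoacetyl-CoA, was at 3.55, 3.95, 3.87 and 4.35 RPKM in HFD+ASBTi, against 2.71, 2.51, 2.22 and 2.58 RPKM in chow, without overlap (1.57-fold, limma adjusted p = 0.0117). Sc5d, a late sterol desaturase, averaged 19.8 ± 5.67 RPKM in HFD+ASBTi and 10.3 ± 1.61 RPKM in chow (limma adjusted p = 0.0433). Sc5d lost its call without any 1 library other than HFD+ASBTi 1, HFD+ASBTi 2, HFD 2, HFD 3 and HFD 4 (limma adjusted p = 0.0521 to 0.111). Sqle, squalene epoxidase, was at 0.811, 0.706, 1.68 and 2.23 RPKM in HFD+ASBTi, 0.39, 0.367, 1.01 and 0.431 RPKM in HFD and 1.31, 0.681, 1.01 and 1.49 RPKM in chow, and its wide overlap with chow left a 95% interval of −0.48 to 0.76. Srebf2, which encodes SREBP2, averaged 0.518 ± 0.0689 RPKM in HFD+ASBTi and 0.567 ± 0.102 RPKM in chow and was not called (limma adjusted p = 0.709).

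**Figure D5:**
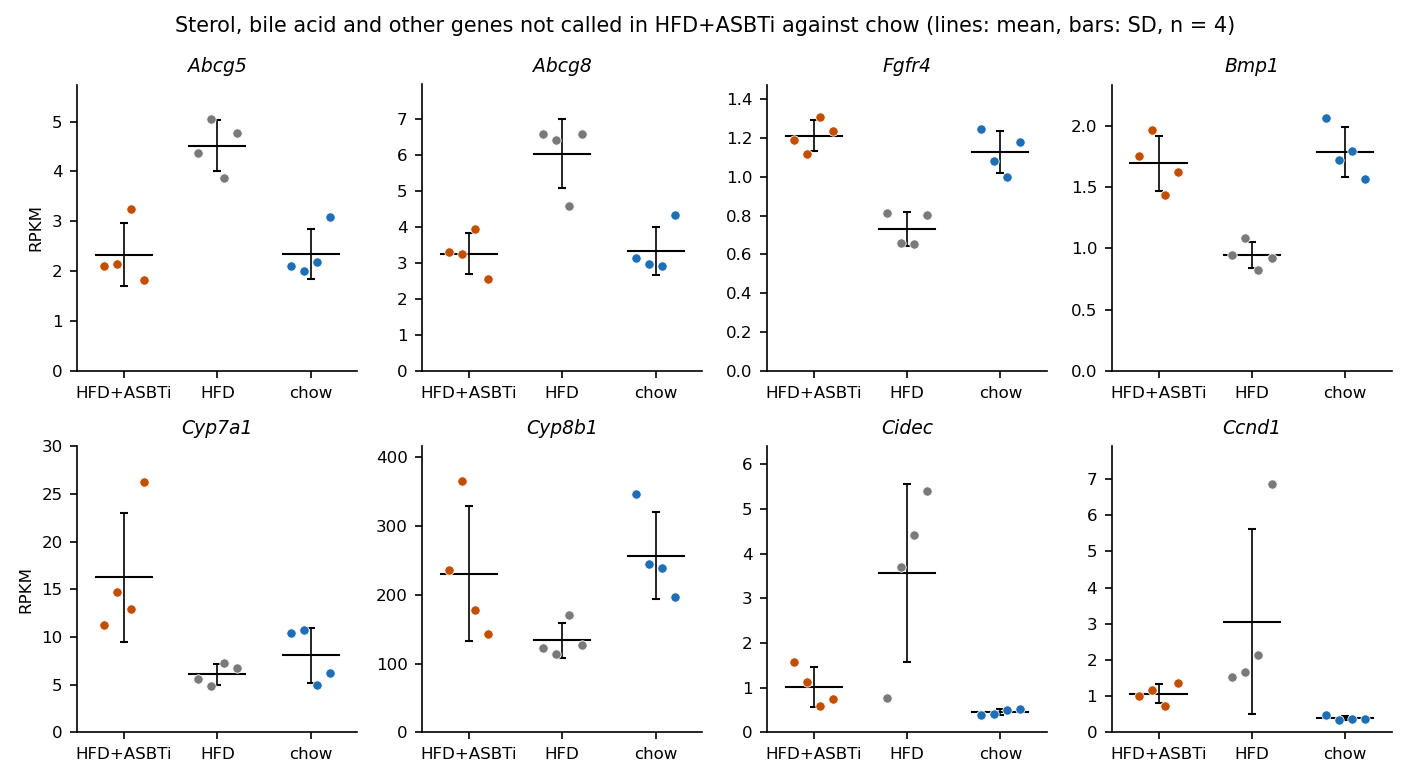
RPKM (linear axis from 0) of 8 genes in each library, in the order HFD+ASBTi, HFD and chow, with a point per library, a line at the mean and bars of 1 SD. In Abcg5, Abcg8, Fgfr4, Bmp1 and Cyp8b1 the HFD+ASBTi points overlap chow, and in Cyp7a1 all 4 HFD+ASBTi points lie above both other groups.

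With all libraries, 6 genes were called between HFD+ASBTi and HFD, and these calls were not stable. The counts were 0 higher and 0 lower without HFD+ASBTi 1, 2 or 4 alone or without HFD+ASBTi 1 and 2, and 75 higher and 48 lower without HFD+ASBTi 3 and 4. Each of the 6 calls was lost without at least 6 of the 12 libraries, taken 1 at a time (limma adjusted p = 0.0526 to 0.205). Bmp1, a procollagen protease, was at 1.75, 1.97, 1.44 and 1.62 RPKM in HFD+ASBTi, 0.946, 1.08, 0.824 and 0.917 RPKM in HFD and 2.06, 1.72, 1.79 and 1.57 RPKM in chow, with HFD+ASBTi overlapping chow and above HFD by 0.60 on the log2 scale (limma adjusted p = 0.0466). Fgfr4 was the other higher gene. The lower genes were Maff, a small Maf factor, Pla2g6, a phospholipase, Mmadhc, a cobalamin-handling protein, and the unnamed 4931408D14Rik. Mmadhc was the only one of these 6 also called against chow, at 1.32, 1.32, 1.36 and 1.28 RPKM in HFD+ASBTi, 1.66, 1.79, 1.8 and 1.71 RPKM in HFD and 1.55, 1.46, 1.55 and 1.64 RPKM in chow, with limma adjusted p = 0.0466 against HFD and 0.0488 against chow. Mmadhc lost both calls without any 1 of the 12 libraries, with limma adjusted p = 0.0553 to 0.205 against HFD and 0.0511 to 0.131 against chow. Cidec, a droplet-fusion protein, was at 1.59, 1.12, 0.592 and 0.752 RPKM in HFD+ASBTi, 0.771, 3.71, 4.42 and 5.39 RPKM in HFD and 0.389, 0.413, 0.491 and 0.532 RPKM in chow. HFD+ASBTi lay above chow without overlap but was not called (log2 change 0.62, 95% interval −0.26 to 1.5, limma adjusted p = 0.393), whereas HFD was called higher than chow (limma adjusted p = 0.0128).

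The remaining lists held few calls. Dbp, a clock output factor, was the 1 higher of 16 clock genes, at 16.7 ± 3.89 RPKM in HFD+ASBTi and 8.91 ± 2.8 RPKM in chow (limma adjusted p = 0.0413), which was lost without any 1 library other than HFD 4 and chow 4 (limma adjusted p = 0.0506 to 0.086). The list held 4 higher without HFD+ASBTi 1 and 2, and 1 higher and 3 lower without HFD+ASBTi 3 and 4. Of 22 male-biased genes, Nudt7 and Mup20 were higher and Gstp1, a glutathione transferase, lower. Mup20, a major urinary protein, averaged 438 ± 149.5 RPKM in HFD+ASBTi and 187 ± 51 RPKM in chow (limma adjusted p = 0.037). Gstp1 averaged 34.1 ± 8.14 RPKM in HFD+ASBTi and 71.9 ± 13.4 RPKM in chow (limma adjusted p = 0.0258). Mup20 lost its call without any 1 library other than HFD+ASBTi 3, HFD 1, HFD 3, HFD 4 and chow C7 (limma adjusted p = 0.0537 to 0.0948). Gstp1 lost its call without HFD+ASBTi 1, HFD+ASBTi 2, HFD+ASBTi 3, chow 1, chow 2 or chow C7 (limma adjusted p = 0.0539 to 0.0774). The list held 2 higher and 1 lower both without HFD+ASBTi 1 and 2 and without HFD+ASBTi 3 and 4, but Mup20 and Gstp1 were not called without HFD+ASBTi 1 and 2 (limma adjusted p = 0.189 and 0.109). In the growth hormone list of 12, the receptor Ghr was higher at 0.986 ± 0.092 RPKM in HFD+ASBTi and 0.601 ± 0.0287 RPKM in chow (limma adjusted p = 0.00582) and Igfbp1 lower. Mbl2, a lectin of complement activation, was the 1 called of 27 coagulation and complement genes, higher at 23.2 ± 2.3 RPKM in HFD+ASBTi and 16.5 ± 1.1 RPKM in chow (limma adjusted p = 0.021). Mbl2 lost its call without chow 1, chow 2 or chow C7 (limma adjusted p = 0.0549 to 0.0618). Gadd45b was the 1 of 15 cell cycle genes, and Gstp1 the 1 of 19 NRF2 targets. Oxidative phosphorylation, with 55 genes tested, had none called and a median of −0.0039.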

How the data were processed

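Liver RNA of 12 libraries in 3 groups of 4 was analysed. Per the labels, polyadenylated RNA was sequenced, and the authors' deposited table gives RPKM for 33763 RefSeq transcripts. The submitters' processing notes name Bowtie 0.12.7 and the build mm9, while counter, annotation and strand setting are not named there. A gene was represented by its transcript of highest mean. Of 2605 rows with no symbol, 2589 were named by accession and 16 stayed unnamed, and 48 symbols turned into dates were restored. All sample columns were mapped, 1 of them (chow C7) only to its group. Low RPKM values came to whole reads, with a tolerance of 0.05, in 78.8% to 81.7% of cases per library with the genomic span and in 13.4% to 15.7% with the spliced length, so depth is an estimate from the span, and read numbers cover counting error only.

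The test was limma 3.58.1 in R 4.3.3 (lmFit, contrasts, eBayes with trend) on log2(RPKM + 0.5) over all 12 libraries, for genes that reached 0.5 RPKM in 4 or more libraries, 2-sided, with Benjamini-Hochberg adjustment over 6325 genes and calls at adjusted p under 0.05. Folds are ratios of mean RPKM, and log2 changes, on the log2(RPKM + 0.5) scale, understate the change of low genes. A gene under 0.5 RPKM in 1 group could pass the filter only through the groups where it is high, so such differences are conditioned on the filter. The steps were tested on simulated data. Tables and figures used Python 3.11.15 with pandas 2.3.3 and matplotlib 3.10.9. Promoter and microRNA sequences and their coordinates are from RefSeq tables of GRCm38.p6, not from mm9, and were aligned with Biopython 1.88.

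The comparison, the gene lists and the panel were chosen with earlier results of these data known. Named genes were the 8 largest rises and 8 largest falls among called genes without overlap whose mean reached 1 RPKM in a group, up to 4 called members of each list, a fixed panel, and genes called the same way in HFD+ASBTi against HFD or in HFD against chow (up to 6 a direction). Those named for HFD against chow also had to differ little between HFD+ASBTi and HFD. Other genes in the text were chosen after their values were seen, and some genes are not reported here. Alternatives changed the pseudocount, filter, scaling, libraries, weights and choice of transcript.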

Additional observations from a re-analysis of the deposited data

Results flagged for a closer look

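Of 172 sets of 4 values (the named genes in the HFD+ASBTi and chow groups), 3 held a library far from the other 3. Chance flags about 1 in 20, so these flags are fewer than chance alone would give. Cyp26a1 was at 1.32 RPKM in HFD+ASBTi 3, against 0.0714 to 0.204 RPKM in the other HFD+ASBTi libraries. Abcg8 was at 4.33 RPKM in chow 4, against 2.92 to 3.14 RPKM in the other chow libraries. Scd1 was at 93.6 RPKM in chow C7, against 193 to 208 RPKM in the other chow libraries.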

How the results depend on the processing

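Of the 64 named genes called in HFD+ASBTi against chow, none changed sign under any alternative run, 28 kept their call without any 1 library, and 36 lost it without at least 1. With no filter on low values 28 lost it, with only the 8 libraries of the comparison 14, with quantile normalization 6 and with median centring 6. Cyp7a1 was called only on the RPM scale. For HFD+ASBTi against chow (300 higher, 146 lower), the counts were 190 higher with quantile normalization, 185 with median centring, 513 on the RPM scale and 684 with array weights, which gave 347 lower. Leaving out 1 library gave 90 to 350 higher and 48 to 167 lower. For HFD+ASBTi against HFD (2 higher, 4 lower), 0 were higher with a pseudocount of 1, no filter, a mean RPKM of at least 1, quantile normalization, median centring or only the 8 libraries, and 8 with array weights. The lower counts were 2 with a pseudocount of 1, 0 with no filter, 1 with a mean of at least 1 and 8 with array weights. Leaving out 1 library gave 0 to 3 higher and 0 to 7 lower. For HFD against chow (484 higher, 282 lower), the RPM scale gave 863 higher and 441 lower, array weights 954 and 638, and leaving out 1 library 287 to 544 and 160 to 345. Alternatives chosen after seeing the data left out pairs of HFD+ASBTi libraries. Without libraries 1 and 2, HFD+ASBTi against chow had 161 higher and 93 lower genes, and HFD+ASBTi against HFD 0 and 0. Without libraries 3 and 4, HFD+ASBTi against HFD had 75 higher and 48 lower genes. Of the 300 higher and 146 lower genes, 294 and 146 had the same sign without libraries 1 and 2, and 293 and 146 without libraries 3 and 4. No paired analysis was possible because all chow labels carry replicate number 1, for HFD+ASBTi against chow. For HFD+ASBTi against HFD, same-numbered libraries deviated together with correlations of 0.0408 to 0.0691 only. That is little shared deviation, and it cannot show whether the design paired these libraries. A fit with the replicate block called 1 higher and 2 lower. The estimated depth of 8960000 to 13230000 reads limits what can be said of genes with low RPKM.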

Other observations

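The genes in this section were chosen after their values were seen. Adrb3, the β3-adrenergic receptor, was at 3.87, 4.68, 5.59 and 3.5 RPKM in HFD+ASBTi, 2.5, 1.63, 1.81 and 2.46 RPKM in HFD and 1.71, 1.28, 2.22 and 1.24 RPKM in chow. Its HFD+ASBTi values lay above those of both other groups, 2.74-fold higher than chow (limma adjusted p = 0.00462), while the difference from HFD was not called (limma adjusted p = 0.165). Hsd3b3, a steroid dehydrogenase, averaged 6.51 ± 0.817 RPKM in HFD+ASBTi and 2.48 ± 0.249 RPKM in chow (limma adjusted p = 6.98e-05). Gpr146, a receptor, averaged 11.5 ± 0.57 RPKM in HFD+ASBTi and 5.9 ± 0.581 RPKM in chow (limma adjusted p = 2.03e-04), and Sucnr1, the succinate receptor, 4.18 ± 0.828 RPKM in HFD+ASBTi and 1.71 ± 0.228 RPKM in chow (limma adjusted p = 0.00474). Among lower genes, Fkbp5, a glucocorticoid-induced chaperone, averaged 0.338 ± 0.167 RPKM in HFD+ASBTi and 1.21 ± 0.158 RPKM in chow (limma adjusted p = 0.00225), Sdc4, a heparan sulfate proteoglycan, 10.8 ± 0.867 RPKM in HFD+ASBTi and 18.1 ± 0.782 RPKM in chow (limma adjusted p = 7.16e-04), and Il1r1, the interleukin-1 receptor, 0.668 ± 0.171 RPKM in HFD+ASBTi and 1.79 ± 0.386 RPKM in chow (limma adjusted p = 0.00582). No single library ended these 7 calls. In HFD+ASBTi 1, 2 and 4 and in all HFD libraries, Fkbp5 was under the 0.5 RPKM of the filter. It passed through chow and HFD+ASBTi 3.

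The row for Nnt, named for the nicotinamide nucleotide transhydrogenase of mitochondria, is a transcript that RefSeq classes as noncoding, so it does not give the level of the enzyme. It was at 0.34, 0.359, 0.344 and 0.338 RPKM in HFD+ASBTi, 0.41, 0.474, 0.454 and 0.575 RPKM in HFD and 0.747, 0.759, 0.832 and 0.795 RPKM in chow. All HFD+ASBTi values were under the 0.5 RPKM of the filter, which the row passed through the chow libraries and HFD 4. The 4 HFD+ASBTi values were close together and below all chow values, 2.27-fold lower (limma adjusted p = 2.41e-04). Neat1, a long noncoding RNA of nuclear paraspeckles, was at 169, 172, 33.7 and 45.5 RPKM in HFD+ASBTi, 51.1, 90.3, 71.6 and 89.8 RPKM in HFD and 37.5, 42.1, 31.7 and 31.8 RPKM in chow. HFD+ASBTi 1 and 2 stood above the other 10 libraries and HFD+ASBTi 3 and 4 near chow, and it was not called with all 4 (limma adjusted p = 0.163). Gdf15, a stress-induced cytokine, was split the same way, at 10.4, 9.86, 1.09 and 1.45 RPKM in HFD+ASBTi, against 2.67, 3.26, 7.62 and 1.2 RPKM in chow (limma adjusted p = 0.852).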
